A study of Mus musculus with 62 samples.

Results

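The response of the mouse cortex to ethanol was compared between mice that had received a single injection and mice that had received 10, and the genes that differed after the single injection were followed into the repeatedly injected mice. The comparison used all libraries labelled as cortex (CTX), which are 12 of the 62 libraries of the series, in 4 groups of 3. All mice were male C57BL/6J of 8 to 10 weeks. Acute saline and acute ethanol mice received 1 intraperitoneal injection, and chronic saline and chronic ethanol mice received 1 injection a day for 10 days. Ethanol was given at 2 g/kg as a 20% solution in saline, the controls received saline alone, and every mouse was killed 4 h after its last injection. Each library is poly(A) RNA of 1 mouse and is named here by its group and the mouse number that its label gives.

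The chronic mice are other animals than the acute mice, so no gene was followed within an animal. Each exposure history has its own saline group, and the interaction tested here asks whether the difference between ethanol and saline after 10 injections is unlike that after 1. The number of injections and anything else in which the acute and chronic animals differed, such as handling or the day of killing, cannot be told apart. The libraries hold whole cortical tissue, in which fewer cells of a type and less RNA per cell cannot be told apart.

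Ethanol acts on cortical neurons largely through ligand-gated channels, raising inhibition through GABA-A receptors and lowering excitation through NMDA-type glutamate receptors. Neuronal firing drives the immediate early genes, transcription factors and plasticity proteins that are transcribed within minutes and decay within hours. An intoxicating dose also activates the hypothalamus, pituitary and adrenal gland, and the corticosterone released acts in the brain through glucocorticoid receptors, which bind DNA and raise genes such as *Fkbp5*. With repeated dosing the responses to a drug can shrink (tolerance) or grow (sensitization).

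The cortex libraries held 43173748 to 61873358 counts (median 51703961). Levels below are CPM, the count of a gene scaled to a common library size,, and differences are log2 fold changes (log2FC) of ethanol over saline with their standard errors. All 8 markers of pallial excitatory neurons were counted and summed to 2404 to 2728 CPM in the 12 libraries, as the tissue label requires. Markers of the neighbouring striatal projection neurons summed to 160 to 236 CPM and those of thalamic neurons to 69.8 to 118 CPM. Some libraries stood apart from the others. In chronic ethanol 6 the level was higher by 0.25 on the log2 scale for each 0.1 of GC content, against slopes of −0.08 to 0.06 in the other 11 libraries, and mitochondrial transcripts took 4.07% of its counts against 5.06% to 6.68%. Chronic saline 3 had the highest sum of upper-layer neuron markers (1334 CPM) and the lowest sum of myelin markers (1133 CPM). Acute saline 6 held 123 CPM of choroid plexus markers, against 4.3 to 27.9 CPM elsewhere. Results that rest on the chronic groups are therefore also given without chronic ethanol 6 or chronic saline 3.

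Summed markers of cortical layers and of myelin also differed with treatment after the single injection. The ratio of summed upper-layer to summed deep-layer neuron markers was 4.62, 4.40 and 4.52 in acute saline, 3.05, 2.91 and 3.23 in acute ethanol, 6.84, 2.76 and 3.87 in chronic saline, and 2.87, 2.19 and 4.91 in chronic ethanol. The acute groups did not overlap in this ratio, while the chronic groups did. Summed myelin markers were 2087, 1822 and 2006 CPM in acute saline and 2815, 2866 and 2166 CPM in acute ethanol, and 1133, 2475 and 2093 CPM in chronic saline against 2430, 2911 and 1912 CPM in chronic ethanol. The part of these shifts in the results below was not tested, and values with the log2 ratio of upper to deep layers as a covariate are given where they differ.

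**Figure D1:**
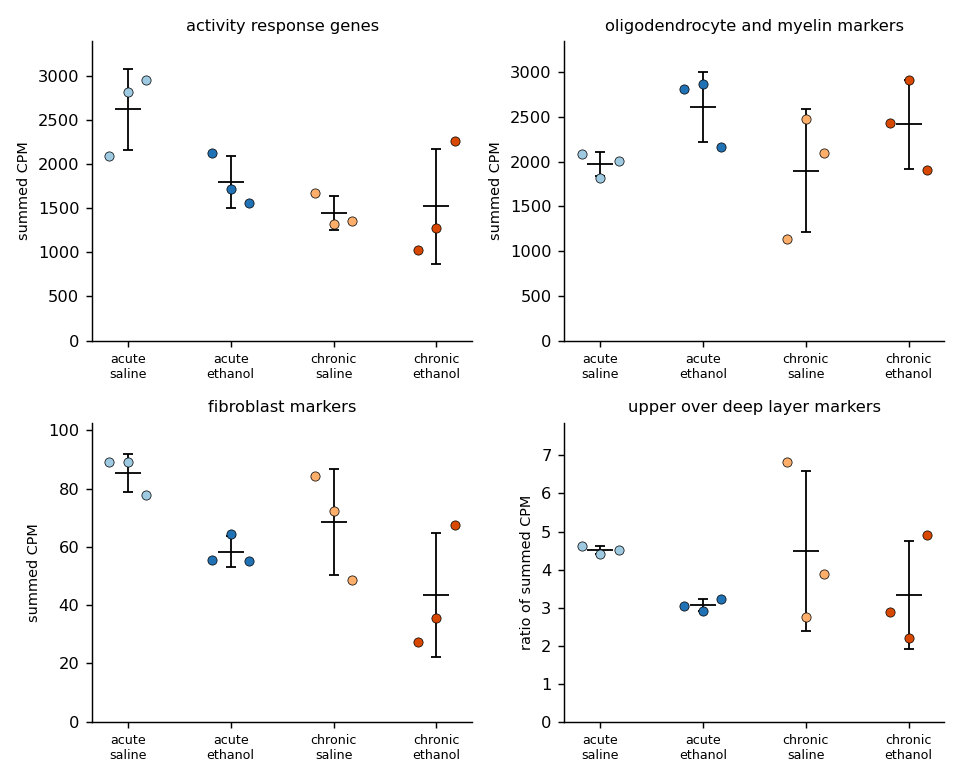
Summed CPM of the activity-response, myelin and fibroblast lists and the ratio of upper-layer to deep-layer markers in each cortex library, with 1 point a mouse and a bar at the mean of each group of 3. The acute groups are apart in the layer ratio (4.40 to 4.62 in saline, 2.91 to 3.23 in ethanol), whereas chronic saline spreads from 2.76 to 6.84.

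After the single injection, 515 of 25905 genes passed the test (edgeR quasi-likelihood test, false discovery rate (FDR) < 0.1), which is 1.99% of the genes tested. Of these, 212 rose (0.818%) and 303 fell (1.17%). After 10 injections, 0 of 25644 genes passed (0%), with 2656 genes at an unadjusted p under 0.05, and DESeq2 called 156 genes (0.608%), 28 higher and 128 lower. The interaction passed for 0 of 26540 genes (0%), with 2174 at an unadjusted p under 0.05 (8.19%), and DESeq2 called 21 (0.0791%), 6 with a higher and 15 with a lower log2FC after 10 injections. The edgeR count of acute calls depended on single mice, with 794 without acute ethanol 2, 42 without acute ethanol 4, 142 without acute ethanol 5, 307 without acute saline 2 and 111 without acute saline 4. It was 0 in a fit of all 4 groups without a covariate (1914 genes at an unadjusted p under 0.05). With the layer ratio added to that fit as a covariate it was also 0 (1282 genes). This count therefore does not show the covariate's own share. The biological coefficient of variation was 0.0882 among the acute libraries and 0.144 among the chronic ones, so a difference of a given size was harder to call after 10 injections.

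To describe what became of the acute changes, each of the 513 acute calls that could be tested in the chronic mice was classed by the ratio of its chronic to its acute log2FC. A ratio of 0.5 or above was called staying, a ratio between −0.5 and 0.5 fading, and a ratio of −0.5 or below reversing. These classes describe fitted values and are not tests, since edgeR called no interaction and DESeq2 called it for 1 of the acute calls, *Stra6*. The interaction of an acute call holds the acute log2FC that chose the gene. Interactions given below for acute calls are therefore no separate evidence of fading or reversing. By this rule 209 genes stayed (40.7%), 288 faded (56.1%) and 16 reversed (3.12%). Among the 212 genes that rose acutely, 99 stayed, 109 faded and 4 reversed. Among the 301 that fell, 110 stayed, 179 faded and 12 reversed.

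The acute changes were therefore mostly smaller after 10 injections rather than turned round. The median log2FC of the genes that rose was 0.43 after 1 injection and 0.20 after 10, and that of the genes that fell was −0.44 after 1 and −0.12 after 10. In the chronic mice, which did not choose these genes, 390 of the 513 (76.0%) kept their sign, against 54.1% of the 25009 genes tested in both histories, whose median log2FC was 0.003 acutely and −0.004 chronically. Estimates chosen by a threshold tend to be too large, and the part of this in the smaller chronic medians was not tested. Among the genes that rose acutely, 39 (18.4%) were higher in chronic ethanol at an unadjusted p under 0.05, against 4.31% of all genes tested, and 0 were lower. Among the genes that fell, 56 (18.6%) were lower, against 6.04% of all genes, and 1 was higher. The 3 chronic ethanol mice lay on the same side of all 3 chronic saline mice as in the acute groups for 29 of the rising and 48 of the falling calls, where 8.14% of all genes had chronic ethanol above and 9.83% below.

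The split between staying and fading moved with single chronic mice. Without chronic ethanol 6, 63.5% stayed, 35.2% faded and 1.37% reversed, and 93.9% kept their sign. Without chronic ethanol 5, 28.3% stayed and 9.55% reversed. Without chronic ethanol 1, 35.5% stayed and 12.9% reversed. Without chronic saline 3, 24.8% stayed, 63.7% faded and 11.5% reversed, and 59.5% kept their sign. With the layer ratio as a covariate 36.5% stayed, 43.1% faded and 20.4% reversed, and 56.7% kept their sign, close to the 54.1% of all genes. The class held with each of the 6 chronic libraries left out in turn for 88 of the 209 staying genes, 89 of the 288 fading genes and 2 of the 16 reversing genes, and those 88 staying genes also stayed under the covariate.

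**Figure D2:**
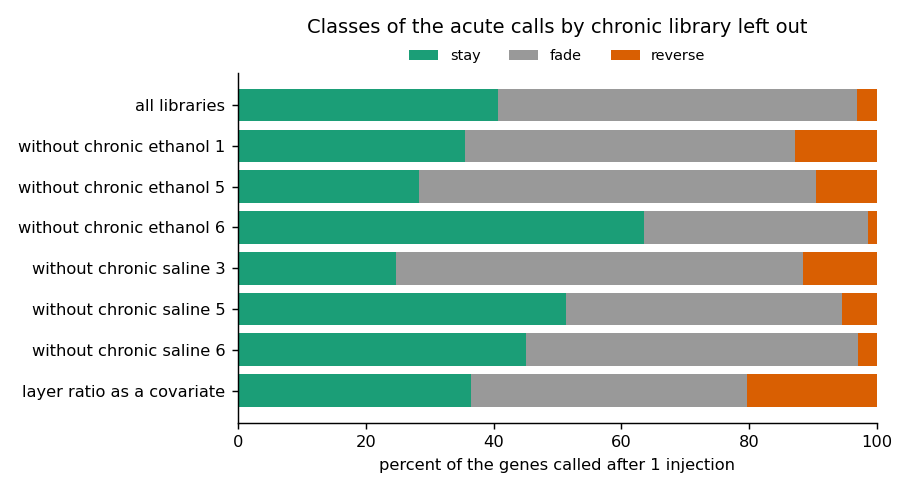
Percent of the acute calls classed as staying, fading or reversing (stacked bars) with all chronic libraries and with each chronic library left out in turn. Staying ranges from 24.8% without chronic saline 3 to 63.5% without chronic ethanol 6, against 40.7% with all libraries.

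**Figure D3:**
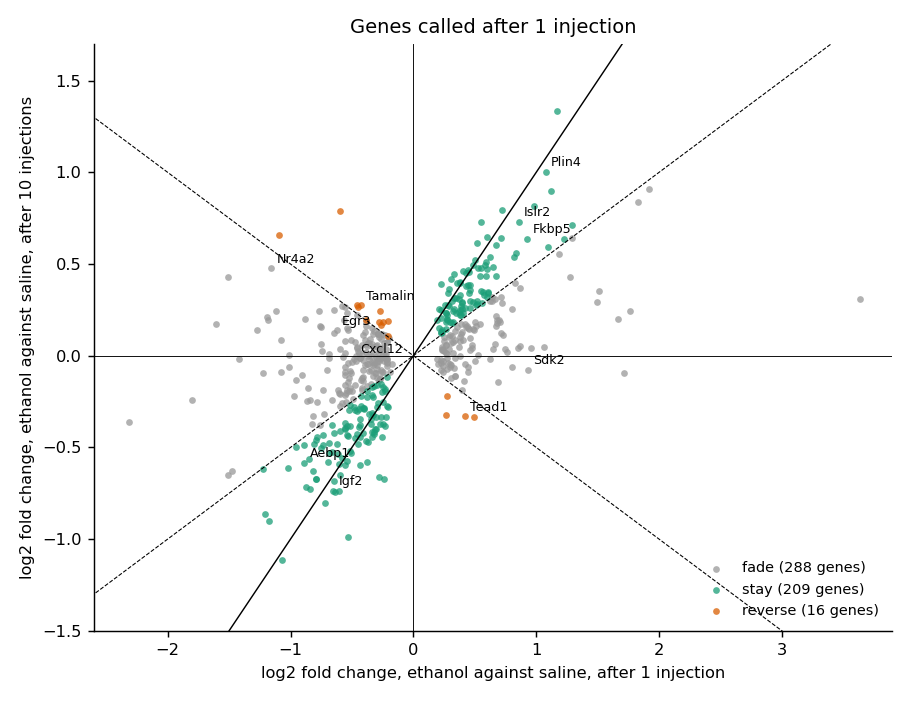
Log2FC of ethanol over saline after 1 injection (x axis) and after 10 injections (y axis) for the acute calls, with 1 point a gene and the class limits drawn as lines. The points lie mostly in the quadrants of like sign (390 of 513), and the chronic medians (0.20 and −0.12) are nearer to 0 than the acute ones (0.43 and −0.44).

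Of the genes with known glucocorticoid responses, those called acutely mostly stayed, while the median of the whole list shrank. Of 18 listed genes tested, 5 rose after the single injection, where 0.818% of all genes rose, and none fell. Of the 5, 4 stayed and 1 faded, where 46.7% of all rising calls stayed. The median log2FC of the list was 0.44 acutely and 0.12 chronically, and 0.49 and 0.15 with the layer covariate. The chronic median was 0.09 without chronic ethanol 6 and 0.14 without chronic saline 3. *Fkbp5* (chr17:28618068-28736498), which encodes a co-chaperone that restrains the glucocorticoid receptor, measured 31.5, 36.4 and 39.7 CPM in acute saline and 51.9, 77.5 and 75.4 CPM in acute ethanol. After 10 injections it measured 26.2, 25.9 and 23.4 CPM in saline and 40.5, 32.2 and 44.0 CPM in ethanol. Every ethanol mouse lay above every saline mouse of its own history. The log2FC was 0.93 ± 0.13 acutely (edgeR FDR 0.0103) and 0.64 ± 0.12 chronically (edgeR FDR 0.443, DESeq2 FDR 0.0094), and it was 0.54 without chronic ethanol 6 and 0.67 without chronic saline 3. The interaction was −0.30 ± 0.20 on the log2 scale (edgeR FDR 0.678), so a smaller chronic response of *Fkbp5* was not distinguishable from an equal one.

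*Plin4*, *Map3k6* and *Cdkn1a* of the same list also kept much of their change. *Plin4*, a lipid droplet coat protein, measured 6.06, 9.56 and 14.9 CPM in acute saline, 18.1, 18.1 and 28.1 CPM in acute ethanol, 4.91, 8.13 and 3.05 CPM in chronic saline and 16.4, 7.42 and 8.28 CPM in chronic ethanol. Its log2FC was 1.08 ± 0.25 (FDR 0.062) and 1.00 ± 0.37, with overlap between the chronic groups. *Map3k6*, a stress-activated kinase, had a log2FC of 0.62 ± 0.16 acutely (FDR 0.0973) and 0.54 ± 0.16 chronically, with 3.86, 3.33 and 3.81 CPM in chronic saline all below the 5.57, 4.38 and 5.90 CPM of chronic ethanol. *Cdkn1a*, the cell-cycle inhibitor p21, was at 0.46 ± 0.09 acutely (FDR 0.0327) and 0.36 ± 0.19 chronically, but at 0.09 chronically without chronic ethanol 6.

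Other members of the list followed another course. *Tsc22d3*, the glucocorticoid-induced leucine zipper, rose by 0.55 ± 0.12 acutely (FDR 0.0632) and was at 0.17 ± 0.11 chronically, and is classed as fading. *Sgk1*, a salt- and stress-responsive kinase, measured 51.6, 41.0 and 57.2 CPM in acute saline and 55.8, 73.1 and 72.2 CPM in acute ethanol, a difference of 0.43 ± 0.12 that missed the threshold (FDR 0.121). In the chronic groups it measured 46.1, 40.3 and 50.5 CPM with saline and 39.4, 45.3 and 34.6 CPM with ethanol, which gave −0.19 ± 0.12 and an interaction of −0.62 ± 0.19 (edgeR FDR 0.600, DESeq2 FDR 0.376). *Mt2*, a metal-binding metallothionein that also responds to glucocorticoids and is listed apart from them, rose by 0.51 ± 0.09 acutely (FDR 0.0284) and was at 0.28 ± 0.09 chronically, where saline mice held 48.5, 45.0 and 45.2 CPM and ethanol mice 54.4, 50.8 and 61.6 CPM. Its neighbour *Mt1* was at 0.21 ± 0.05 (FDR 0.0989) and 0.26 ± 0.12. *Mt1* and *Mt2* were the acute calls among the 7 genes tested of the metallothionein and zinc list.

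The glucocorticoid receptor binds an inverted repeat, and 2 of the 15 listed genes with a promoter window in the RefSeq table (GRCm38.p6, from 250 bases before to 50 bases after the start) held the letters GNACA and TGTNC with 3 bases between them, on either strand. These letters occurred in the windows of 145 of all 27025 genes with one (0.537%). The windows are shown because *Map3k6* stayed while *Sgk1* differed between the histories as just given. Capitals mark the match, which begins 181 bases before the start in *Map3k6* (chr4:133240568-133240867, plus strand) and 188 bases before it in *Sgk1* (chr10:21993640-21993939, plus strand). A match is a description of sequence and not an observed binding site.
Map3k6: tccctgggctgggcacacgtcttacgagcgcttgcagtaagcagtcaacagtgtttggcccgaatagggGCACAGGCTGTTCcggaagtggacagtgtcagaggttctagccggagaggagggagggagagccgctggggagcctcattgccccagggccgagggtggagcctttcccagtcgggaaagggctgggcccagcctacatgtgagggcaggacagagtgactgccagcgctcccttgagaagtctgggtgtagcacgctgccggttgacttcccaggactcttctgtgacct
Sgk1: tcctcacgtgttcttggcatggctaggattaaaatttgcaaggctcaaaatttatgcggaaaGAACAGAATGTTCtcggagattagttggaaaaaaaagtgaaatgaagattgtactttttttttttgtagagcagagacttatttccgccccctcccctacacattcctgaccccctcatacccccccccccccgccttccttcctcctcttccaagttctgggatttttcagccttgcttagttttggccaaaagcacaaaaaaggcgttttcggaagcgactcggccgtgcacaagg

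The immediate early and activity-response genes that were called all faded by this rule. Of 25 tested, 11 fell after the single injection, where 1.17% of all genes fell, and none rose. All 11 were classed as fading, as were 59.5% of all falling calls. The list median went from −0.60 acutely to 0.08 chronically, with 1 of 25 members above 0 acutely and 16 of 25 chronically, or 4 of 25 chronically without chronic ethanol 6. With the layer ratio as a covariate the medians were −0.26 and 0.21. *Egr3*, a zinc-finger transcription factor induced by synaptic activity, measured 217, 206 and 229.5 CPM in acute saline and 168, 134 and 122 CPM in acute ethanol, without overlap (log2FC −0.62 ± 0.09, FDR 0.0111). In the chronic groups it measured 156, 108 and 99.9 CPM in saline and 110.2, 114 and 172 CPM in ethanol, which overlapped (0.14 ± 0.20). The interaction for *Egr3* was 0.75 ± 0.25 (edgeR FDR 0.600, DESeq2 FDR 0.394), the lowest p of the list.

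Chronic saline mice, and not only chronic ethanol mice, differed from the acute saline mice in this list. The summed level of the 25 genes was 2096, 2823 and 2955 CPM in acute saline, 2132, 1721 and 1557 CPM in acute ethanol, 1675, 1322 and 1358 CPM in chronic saline and 1033, 1277 and 2266 CPM in chronic ethanol. All 3 chronic saline mice lay below all 3 acute saline mice. Among the chronic ethanol mice only mouse 6 lay above the chronic saline range. Without it the chronic list median was −0.32, so that median depended on a single library. *Fos*, the canonical immediate early gene, illustrates this, with −0.86 ± 0.21 acutely (FDR 0.0858), −0.24 ± 0.58 chronically and −1.07 without chronic ethanol 6. Its chronic ethanol mice held 4.37, 13.6 and 29.9 CPM, within and beyond the 31.1, 9.90 and 16.6 CPM of chronic saline. *Nr4a2*, an orphan nuclear receptor, was at −1.16 ± 0.21 acutely and 0.48 ± 0.46 chronically, and here mouse 5 and not mouse 6 was high (6.48, 23.6 and 6.72 CPM).

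The other called members were the transcription factors *Egr2* (−1.18 acutely, 0.20 chronically), *Fosl2* (−1.02 and −0.06), *Nr4a1* (−0.96 and −0.13), *Junb* (−0.86 and −0.18) and *Egr4* (−0.75 and 0.15). The remainder were the synaptic genes *Arc* (−0.77 and 0.24) and *Nptx2* (−0.39 and 0.16) and the phosphatase gene *Dusp1* (−0.78 and −0.25). The interaction had an unadjusted edgeR p under 0.05 for 6 members (8.19% of all genes tested in either direction), all with a higher log2FC after 10 injections. These were *Egr3*, *Nr4a2*, *Fosl2*, *Nptx2*, the neurotrophin gene *Bdnf* and the scaffold gene *Homer1*. Of them *Egr3*, *Nr4a2*, *Fosl2* and *Nptx2* are acute calls, whose interaction holds the acute fall that chose them. Among all falling acute calls, 25.2% had such a p in either direction. The cAMP response element TGACGTCA, which CREB binds when neurons fire, lay in the windows of 2 of 19 listed genes with one. Of all 27025 genes with a window, 549 held it (2.03%). Of the 8 called genes with a window, *Dusp1* held it, 143 bases before the start (chr17:26508423-26508722, GRCm38.p6, minus strand), and its window is printed with the element in capitals.
Dusp1: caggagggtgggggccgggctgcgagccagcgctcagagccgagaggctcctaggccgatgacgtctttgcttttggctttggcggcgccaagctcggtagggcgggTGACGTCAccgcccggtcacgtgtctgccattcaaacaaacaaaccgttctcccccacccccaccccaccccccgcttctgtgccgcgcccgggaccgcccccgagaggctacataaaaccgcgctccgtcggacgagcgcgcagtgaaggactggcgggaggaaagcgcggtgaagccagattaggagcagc

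**Figure D4:**
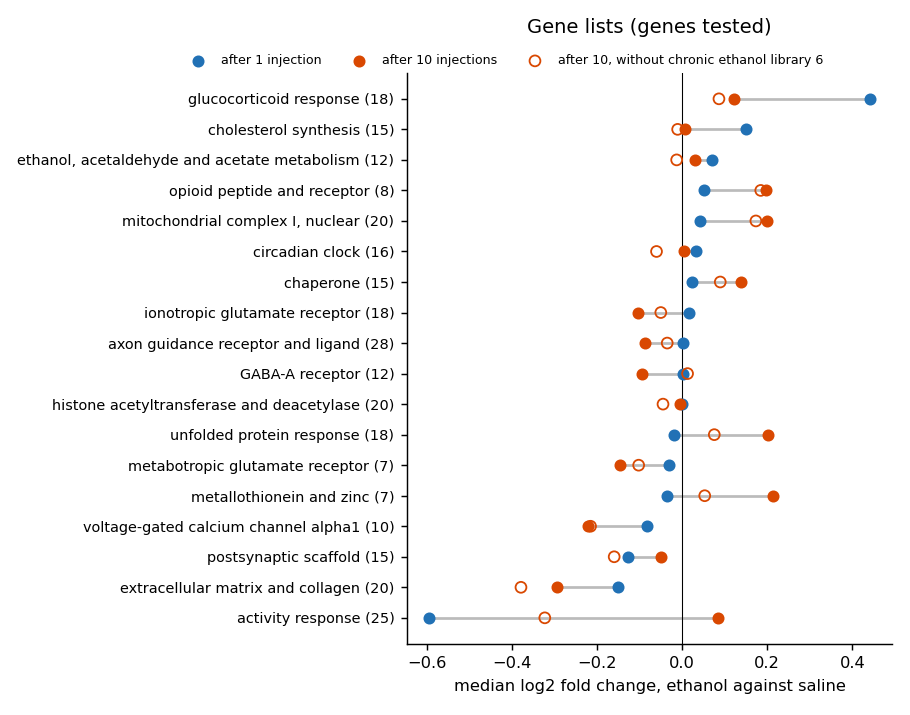
Median log2FC of ethanol over saline in 18 gene lists after 1 injection, after 10 injections, and after 10 injections without chronic ethanol 6, with 1 row a list and 1 point a comparison. The activity-response list moves from −0.60 to 0.08, and to −0.32 without that library, and the glucocorticoid list from 0.44 to 0.12.

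Called genes of the cholesterol pathway faded as well by the ratio rule. Of 15 genes tested, 4 rose acutely, where 0.818% of all genes rose. All 4 were classed as fading, as were 51.4% of all rising calls. These were *Msmo1*, *Idi1*, *Hmgcs1* and *Fdft1*, enzymes of sterol synthesis. *Idi1* measured 37.7, 34.1 and 41.3 CPM in acute saline and 47.1, 48.1 and 47.8 CPM in acute ethanol, against 37.4, 36.4 and 42.6 CPM and 39.5, 35.0 and 32.6 CPM in the chronic groups. The acute groups were apart and the chronic groups overlapped, with log2FC of 0.34 ± 0.07 (FDR 0.0493) and −0.11 ± 0.10. The interaction for *Idi1* was −0.46 ± 0.13 (edgeR FDR 0.600, DESeq2 FDR 0.355). *Msmo1* was at 0.38 ± 0.07 (FDR 0.034) and 0.08 ± 0.09, with an interaction of −0.31 ± 0.11. In all, 5 of the 15 genes had a lower log2FC after 10 injections at an unadjusted edgeR interaction p under 0.05. Of all 26540 genes tested, 1247 did. Among all rising acute calls, whose interaction holds the acute rise that chose them, 19.8% had such a p in either direction. The chronic median of the list was 0.01, and −0.01 without chronic ethanol 6.

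The acute calls among myelin genes and upper-layer markers mostly stayed, and those among deep-layer markers mostly faded. Of all genes tested, 0.818% rose and 1.17% fell acutely. Of all acute calls, 46.7% of the rising and 36.5% of the falling ones stayed. Of 6 myelin genes tested, 5 rose acutely and all 5 stayed (list median 0.38 acutely and 0.33 chronically), though with the layer ratio as a covariate the medians were 0.03 and 0.12. The chronic median of the list was 0.10 without chronic saline 3 and 0.46 without chronic ethanol 6. Of 9 upper-layer markers, 6 fell acutely, of which 5 stayed and *Lamp5* faded (medians −0.32 and −0.47). Of 12 deep-layer markers, 4 rose acutely, of which 1 stayed and 3 faded (medians 0.46 and 0.13). Without chronic saline 3 the chronic medians were −0.26 for the upper-layer and −0.01 for the deep-layer list. The layer lists are those of the ratio given above, so list and ratio are a single measurement.

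Extracellular matrix genes changed acutely in both directions, and the fibroblast markers that changed fell. Among 20 matrix genes, 2 rose and 8 fell acutely (0.818% and 1.17% of all genes), of which 6 stayed and 4 faded. The list median was −0.15 acutely and −0.29 chronically. Of 6 markers of meningeal and vascular fibroblasts, *Igf2*, *Col1a1* and *Col1a2* fell and stayed. Summed fibroblast markers were 89.3, 89.1 and 77.7 CPM in acute saline, 55.5, 64.4 and 55.2 CPM in acute ethanol, 84.4, 72.5 and 48.6 CPM in chronic saline and 27.3, 35.7 and 67.6 CPM in chronic ethanol, so the acute groups were apart and the chronic groups overlapped. *Igf2* (chr7:142204503-142220553), a growth factor made by the meninges and choroid plexus, measured 43.6, 44.5 and 39.9 CPM in acute saline and 27.4, 29.3 and 24.9 CPM in acute ethanol. In the chronic groups it measured 40.0, 33.3 and 24.5 CPM with saline and 11.6, 15.9 and 30.5 CPM with ethanol. Its log2FC was −0.65 ± 0.08 (FDR 0.00862) and −0.74 ± 0.31, with overlap through chronic ethanol 6 alone, and the chronic value was −1.23 without that library. With the layer covariate the values were −0.35 and −0.59. The overlapping transcript *Gm49394* counts the same read pairs and had −0.64 and −0.74.

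*Aebp1*, a matrix protein of fibroblasts, was at −0.89 ± 0.11 acutely (FDR 0.00862) and −0.58 ± 0.30 chronically. *Myoc*, a secreted glycoprotein, was at −0.85 ± 0.11 and −0.57 ± 0.45, and its chronic value ran from −1.09 without chronic ethanol 6 to 0.06 without chronic saline 3. *Fmod*, a collagen-binding proteoglycan, was at −0.82 ± 0.11 and −0.33 ± 0.40 and is classed as fading. *Ptgds*, the prostaglandin D synthase of the meninges and choroid plexus, went from −0.68 ± 0.10 to −0.01 ± 0.31, and to −0.39 without chronic ethanol 6. The chronic standard errors of these genes were about as large as the differences between their classes.

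Among the other genes that stayed, *Islr2*, a neuronal immunoglobulin-domain protein of axon growth, was apart in both histories. It measured 51.9, 53.4 and 39.1 CPM in acute saline, 74.3, 99.6 and 87.8 CPM in acute ethanol, 32.02, 58.2 and 43.0 CPM in chronic saline and 64.3, 83.5 and 71.7 CPM in chronic ethanol. The log2FC was 0.86 ± 0.12 (FDR 0.0103) and 0.73 ± 0.19 (DESeq2 FDR 0.0445), and 0.62 and 0.59 with the layer covariate. *Tppp3*, a tubulin-binding protein, was at 0.60 ± 0.08 and 0.32 ± 0.14, and *Plekha2*, a phosphoinositide-binding adaptor, at 0.55 ± 0.08 and 0.48 ± 0.23.

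DESeq2 called 8 of the acute calls in the chronic mice too, all in the acute direction: *Fkbp5* and *Islr2* higher, and *Grin2b*, *Hunk*, *Jag1*, *R3hdm1*, *Slc7a11* and *Kctd16* lower. The last 6 are named because of these values. *Grin2b*, a subunit of NMDA receptors, measured 494, 441 and 413 CPM in acute saline and 386, 392 and 366 CPM in acute ethanol, and 514, 361 and 379.9 CPM in chronic saline and 306, 221 and 256 CPM in chronic ethanol. Its log2FC was −0.24 ± 0.06 (FDR 0.0991) and −0.67 ± 0.15, so the chronic value was the larger. *Jag1*, a Notch ligand, was at −0.54 ± 0.12 (FDR 0.0612) and −0.57 ± 0.14, with chronic saline at 5.29, 5.93 and 5.12 CPM and chronic ethanol at 3.79, 3.44 and 3.66 CPM. The cystine transporter gene *Slc7a11* was at −0.38 and −0.58, the kinase gene *Hunk* at −0.65 and −0.68, *R3hdm1* at −0.31 and −0.40, and the GABA-B receptor auxiliary subunit gene *Kctd16* at −0.28 and −0.66.

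Among genes for scaffold proteins of the postsynaptic density, *Shank1* (−0.38 acutely, −0.46 chronically), *Shank2* (−0.25 and −0.25) and *Shank3* (−0.27 and −0.15) fell acutely and stayed. *Dlgap3* fell acutely and faded (−0.38 and 0.02). Among 18 ionotropic glutamate receptor genes, *Grin2b* stayed and *Grik3* faded (0.27 and 0.01). Of 12 GABA-A receptor genes, *Gabra5* stayed (0.29 and 0.36) and *Gabrd*, the subunit of extrasynaptic receptors, faded (−0.28 and −0.02). *Grm8* was the acute call among 7 metabotropic receptor genes and stayed (0.46 and 0.26).

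Among the named genes that fell and faded, *Cxcl12*, the chemokine made by endothelium and meninges, measured 45.3, 47.3 and 43.8 CPM in acute saline and 35.1, 31.5 and 31.3 CPM in acute ethanol. After 10 injections it measured 48.7, 46.4 and 43.2 CPM in saline and 40.6, 49.96 and 45.0 CPM in ethanol. The acute groups were apart (−0.48 ± 0.07, FDR 0.0103) and the chronic groups overlapped (−0.02 ± 0.10), with an interaction of 0.45 ± 0.12 (edgeR FDR 0.600, DESeq2 FDR 0.218). The values were −0.48 and −0.03 with the layer covariate, and the chronic value was −0.01 without chronic ethanol 6 and 0.03 without chronic saline 3, so *Cxcl12* was a fading gene that none of these settings moved. *Tek*, the angiopoietin receptor of endothelium, went from −0.73 ± 0.10 to −0.32 ± 0.11, with chronic ethanol (9.73, 10.5 and 9.87 CPM) still below chronic saline (13.9, 11.4 and 12.5 CPM).

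Of the genes that rose and faded, *Sdk2*, a synaptic adhesion protein, measured 30.9, 34.3 and 23.3 CPM in acute saline and 56.1, 61.4 and 51.4 CPM in acute ethanol, and 21.5, 45.5 and 19.5 CPM and 36.5, 25.8 and 19.2 CPM in the chronic groups. The log2FC was 0.93 ± 0.11 (FDR 0.00862) and −0.08 ± 0.32, with an interaction of −1.02 ± 0.39. *Mc4r*, the melanocortin receptor of appetite control, measured 0.527, 0.715 and 0.578 CPM in acute saline and 1.55, 2.73 and 2.62 CPM in acute ethanol. In the chronic groups it measured 0.624, 1.18 and 1.10 CPM with saline and 1.90, 2.28 and 1.29 CPM with ethanol, again without overlap. Its log2FC was 1.92 ± 0.26 (FDR 0.0103) and 0.91 ± 0.30, just under the limit for staying. *Spon1*, an adhesion protein of the matrix, was at 0.70 ± 0.09 and 0.19 ± 0.27, and *Spsb1*, a ubiquitin ligase adaptor, at 0.64 ± 0.08 and 0.32 ± 0.31, on the fading side of the same limit.

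A change of sign by the ratio rule was seen in 16 genes. The 1 among them with an unadjusted edgeR p under 0.05 in the chronic mice was *Stra6*, the cell-surface receptor for retinol uptake. *Stra6* measured 4.56, 4.20 and 3.84 CPM in acute saline and 2.40, 2.81 and 3.09 CPM in acute ethanol, then 4.86, 2.39 and 2.99 CPM in chronic saline and 5.81, 5.60 and 6.09 CPM in chronic ethanol. The ethanol mice lay below all saline mice after 1 injection and above all of them after 10. The log2FC was −0.60 ± 0.14 (FDR 0.0779) and 0.79 ± 0.23, and the interaction was 1.38 ± 0.29 (edgeR FDR 0.600, DESeq2 FDR 0.0232). Without chronic ethanol 6 the DESeq2 FDR of this interaction was 0.121. *Stra6* and *Rab30* were the genes that stayed in the reversing class with each chronic library left out.

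*Tead1*, a transcription factor of the Hippo pathway, was at 0.42 ± 0.09 (FDR 0.0466) and −0.33 ± 0.16, with chronic groups that overlapped (13.3, 11.6 and 9.37 CPM in saline, 10.5, 8.66 and 7.91 CPM in ethanol) and an interaction of −0.76 ± 0.19 (edgeR FDR 0.600, DESeq2 FDR 0.129). *Rab30*, a GTPase of the Golgi, was at 0.26 ± 0.07 (FDR 0.0926) and −0.33 ± 0.18. The adhesion gene *Pcdh17* (0.28 and −0.22) and the transcript *Gm3893* (0.50 and −0.33) also turned. Of the genes that fell, *Tamalin*, a scaffold for metabotropic glutamate receptors, went from −0.43 ± 0.07 to 0.28 ± 0.26, but to −0.08 without chronic ethanol 6, whose 63.0 CPM stood above the 29.1 and 39.9 CPM of the other chronic ethanol mice. *Apoe*, the main lipid carrier of the brain, went from −0.21 to 0.19, and to 0.01 without that library. The GTPase gene *Rnd1* (−0.39 and 0.19) and the actin-bundling gene *Fscn1* (−0.25 and 0.19) complete the named genes of this class. The enkephalin precursor *Penk* reversed (−0.46 and 0.28) and the kappa opioid receptor gene *Oprk1* faded (0.87 and 0.37), the acute calls among 8 opioid genes.

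The lowest interaction p-values belonged mostly to genes that the acute test did not call. Of the 21 genes that DESeq2 called, 1 was an acute call, and 20 had log2FC of opposite sign in the 2 histories. Without chronic ethanol 6, DESeq2 kept 2 of the 21. Its FDR was then 0.0639 for *Robo3*, 0.121 for *Stra6*, 0.245 for *Cacna1e* and 0.249 for *Tgm2*. *Cacna1e* (chr1:154266477-154760247), which encodes the R-type calcium channel, measured 214, 213 and 223 CPM in acute saline, 201, 218 and 201 CPM in acute ethanol, 246, 234 and 219 CPM in chronic saline and 176, 152 and 158 CPM in chronic ethanol. The acute groups overlapped and the chronic groups did not, with log2FC of −0.07 ± 0.05 and −0.51 ± 0.09. The interaction was −0.45 ± 0.10 (edgeR FDR 0.600, DESeq2 FDR 0.0906). With the trend on GC content and gene length removed it was −0.22 (edgeR FDR 0.625). The part of that trend in the interaction was not tested. All 10 calcium channel genes tested had a chronic log2FC below 0 (median −0.08 acutely and −0.22 chronically), with 5 at an unadjusted p under 0.05 and 3 with a lower log2FC in the interaction, where 6.04% of all genes were lower in chronic ethanol and 8.19% had such an interaction p in either direction.

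*Robo3* (chr9:37326965-37344542), a receptor of axon guidance, measured 22.5, 21.7 and 30.2 CPM in acute saline and 29.2, 34.9 and 27.0 CPM in acute ethanol, and 35.8, 40.1 and 32.8 CPM in chronic saline and 25.8, 20.4 and 27.3 CPM in chronic ethanol. Chronic ethanol lay below chronic saline without overlap, while the acute groups overlapped. The log2FC was 0.29 ± 0.12 and −0.55 ± 0.12, and the interaction −0.86 ± 0.20 (edgeR FDR 0.600, DESeq2 FDR 0.0911). The saline groups themselves differed by 0.55 on the log2 scale (chronic over acute) and the ethanol groups by −0.31. Of 28 axon guidance genes tested, 4 rose and 2 fell acutely (0.818% and 1.17% of all genes), of which 2 stayed and 4 faded.

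*Xlr3b* (chrX:72235813-72246536), an X-linked gene of a lymphocyte-regulated family, had the lowest interaction p among well-counted genes. It measured 6.38, 4.70 and 2.98 CPM in acute saline, 5.20, 4.27 and 2.25 CPM in acute ethanol, 0.357, 0.110 and 0.876 CPM in chronic saline and 3.60, 2.28 and 5.00 CPM in chronic ethanol. Chronic saline was the group that stood apart, and chronic ethanol overlapped both acute groups. The log2FC was −0.27 ± 0.28 and 3.02 ± 0.54, with an interaction of 3.28 ± 0.66 (edgeR FDR 0.600, DESeq2 FDR 0.161). Chronic saline was below acute saline by −3.38 on the log2 scale, and chronic ethanol differed from acute ethanol by −0.10. Its near-identical copy *Xlr3a* shares read pairs with it and had an interaction of 2.31 ± 0.57, so the copies are not separate observations.

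*Tgm2*, a transglutaminase raised by glucocorticoids and retinoids, measured 13.96, 12.6 and 12.5 CPM in acute saline, 10.9, 11.8 and 12.4 CPM in acute ethanol, 9.72, 9.72 and 8.99 CPM in chronic saline and 14.6, 11.7 and 14.3 CPM in chronic ethanol. Ethanol was below saline after 1 injection and above it after 10, with log2FC of −0.15 ± 0.09 and 0.52 ± 0.12 and an interaction of 0.66 ± 0.14 (edgeR FDR 0.600, DESeq2 FDR 0.0906). *Ier3*, an early-response gene of survival signalling, had an interaction of 0.77 ± 0.18. *Csmd2*, a synaptic transmembrane protein, had overlapping acute groups (0.02) and held 75.2, 83.4 and 79.5 CPM in chronic saline against 57.8, 58.7 and 58.0 CPM in chronic ethanol (−0.44 ± 0.08). *Tnik*, a postsynaptic kinase, and *L3mbtl1*, a chromatin-binding protein, had interactions of −0.38 ± 0.09 and −0.81 ± 0.18. With the trend on GC content and gene length removed these were −0.14 and −0.84. Of the 16 genes named for the lowest interaction p, the difference between the histories was larger between the saline groups for 6 and between the ethanol groups for 10.

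Other lists held few acute calls. *Aldh1b1*, a mitochondrial aldehyde dehydrogenase, was the acute call among 12 genes of ethanol and acetate metabolism and stayed (0.50 and 0.52). *Npas2*, a clock transcription factor, was the acute call among 16 clock genes and faded (−0.34 and 0.07).

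*Sh3bp5*, a regulator of JNK kinase signalling, and *Bahcc1*, a chromatin reader, showed like values in both histories without passing the acute test. *Sh3bp5* was at 0.21 (FDR 0.132) and 0.32 ± 0.08, with an interaction of 0.10 ± 0.09. *Bahcc1* was at −0.34 (FDR 0.187) and −0.45 ± 0.10.

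Isoforms were tested in the same way as genes. Of 132479 isoforms tested, 0 passed the edgeR interaction test (0%), 10085 had an unadjusted p under 0.05 (7.61%), and DESeq2 called 350 (0.264%), of which 43 were higher and 307 lower after 10 injections. These came from 78 genes, 21 of which DESeq2 also called by gene. The non-coding *AI480526* accounted for 220 of the 350, with 250 annotated isoforms tested that share read pairs, so they are not separate observations. *Phc3-205*, a retained-intron isoform of a Polycomb gene, measured 0.97, 1.02 and 1.05 CPM in acute saline, 1.25, 1.34 and 1.28 CPM in acute ethanol, 1.18, 1.21 and 1.35 CPM in chronic saline and 0.75, 0.74 and 0.75 CPM in chronic ethanol. It was above saline after 1 injection and below it after 10, with an interaction of −1.09 ± 0.17 (DESeq2 FDR 0.00319). *Snhg14-207*, from the long non-coding transcript antisense to *Ube3a*, had an interaction of −1.40 ± 0.23, with log2FC of 0.40 and −0.999. *Stra6-201* and *Stra6-202* had 1.39 ± 0.27 and 1.40 ± 0.27, close to the gene's 1.38.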

How the data were processed

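The deposited tables hold counts of read pairs per gene and per isoform, made by the authors with Cutadapt 5.0, STAR 2.7.10a and featureCounts 2.0.6 on GRCm39, in the submitters' processing notes. Per the study's methods, the cortex kit did not mark strand, while pairs were counted as reverse-stranded, and pairs that mapped or overlapped more than once were counted for each feature. Reads from a gene and its partner on the other strand therefore cannot be told apart, and 281 of the 513 acute calls classed overlap such a partner. Depth reduces counting error only. The spread between mice remains at any depth (biological coefficient of variation 0.0882 in the acute and 0.144 in the chronic libraries).

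All 12 cortex libraries were used, grouped by their labels, each from a separate mouse. Features that reached 5 counts in 2 or more libraries of some group were tested with edgeR 4.0.16 (TMM scaling, quasi-likelihood test, prior count 0.125) and Benjamini-Hochberg adjustment at FDR 0.1. Ethanol was tested against saline in the 6 libraries of each history, and the interaction in all 12. Alternatives were DESeq2 1.42.0, limma 3.58.1 with library weights, other filters and scalings, a replicate block, the layer covariate and omission of each library (R 4.3.3). Scripts were tested on simulated data.

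Genes were named by rule: those that the study's text names for the cortex or for effects shared or differing between histories, the 8 lowest interaction p in each direction, and the 4 lowest acute p in each class and direction, where the mean count was 50 or more and, for the last, where the groups did not overlap. Members of the lists were added where a test passed (1 result is not reported here), and 5 isoforms in each direction. Rule, members and lists were chosen with earlier results of these data known. A match of promoter letters used RefSeq windows found by symbol.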

Additional observations from a re-analysis of the deposited data

Results flagged for a closer look

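In 8 of the 16 genes named for the lowest interaction p, every ethanol library lay above every saline library in one history and below every one in the other. A low interaction p in these same libraries favours such a pattern, so the pattern is no separate evidence. The share of all genes that show it was not counted. The opposite movement was not tested beyond the interaction, whose edgeR FDR was 0.600 in each. The interaction on the log2 scale was 1.38 for *Stra6*, 0.66 for *Tgm2*, 0.77 for *Ier3*, 1.27 for the pseudogene *Rps2-ps4* and 0.59 for *Gm54499*, all with the higher log2FC after 10 injections. It was −0.38 for *Tnik*, −0.57 for *Ttf1* and −1.52 for *Gm43080*, with the lower log2FC after 10 injections. Groups of 3 mice were too small for a test of single outlying libraries.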

How the results depend on the processing

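With 3 mice a group, the interaction passed for 0 genes in edgeR, 21 in DESeq2, 2 in DESeq2 without chronic ethanol 6, 314 without a filter and 0 to 2 with each library left out (2 without chronic ethanol 1, 1 without chronic saline 3). Acute calls numbered 957 in DESeq2, 1488 without a filter, 789 with the replicate block and 177 without genes that overlap the other strand. They numbered 0 in the fit of all 4 groups and 0 with the layer covariate added to that fit. With each library left out they numbered 42 to 794 (42 without acute ethanol 4, 794 without acute ethanol 2). Chronic calls numbered 156 in DESeq2, 250 in DESeq2 without chronic ethanol 6, 77 in the fit of all 4 groups, 104 without a filter, 143 with the block, 3 with the covariate and 0 to 0 with each library left out. Isoform interactions numbered 350 in DESeq2, 651 without a filter, 32 with the block and 0 to 308 with each library left out (308 without acute saline 6). The cause of these shifts was not tested.

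The share staying was 60.0% in DESeq2 without chronic ethanol 6, 48.3% in limma, 45.4% with the trend on GC and length removed, 36.5% with the covariate, 23.6% with the block, 54.6% at a ratio limit of 0.3 and 24.8% to 63.5% with each library left out. The share fading was 38.0% in DESeq2 without chronic ethanol 6, 49.4% in limma, 43.1% with the covariate, 36.3% at the limit of 0.3 and 35.2% to 66.1% with each library left out. The share reversing was 6.37% in DESeq2, 10.6% without a filter, 24.1% with the block, 20.4% with the covariate, 9.16% at the limit of 0.3, 1% among the 100 genes with the lowest acute p and 0% to 12.9% with each library left out. The covariate and DESeq2 without chronic ethanol 6 were added after the data were seen. For the replicate block, deviations of same-numbered mice correlated at 0.0835 and 0.147 in the acute and 0.0754 and −0.346 in the chronic groups. Mice of different number ran from −0.144 to 0.0529 in the acute and from −0.166 to 0.330 in the chronic groups. The labels do not say what the numbers share, and whether they pair the mice was not tested. With the block 47.2% of the acute calls kept their sign and the interaction still passed for 0 genes. The acute log2FC of the genes named by class kept its sign under every alternative run. So did the interaction of the genes named from the study's text or for the lowest interaction p. Its size still changed for some, as given for *Cacna1e* and *Tnik* with the trend on GC and length removed. The interaction of the genes named by class alone was not followed in this way. Some chronic values changed sign, as given for *Myoc* and *Tamalin*. Size factors in place of TMM left the shares within their intervals.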

Other observations

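Some lists held no acute call and still lay to one side after 10 injections. All 20 genes tested of the nuclear-encoded subunits of mitochondrial complex I, the entry point of the respiratory chain, had a chronic log2FC above 0 (median 0.04 acutely and 0.20 chronically), and 8 had an unadjusted p under 0.05 (4.31% of all genes were higher), among them *Ndufb9* (0.29), *Ndufs3* (0.24) and *Ndufv1* (0.23). Of 18 entries tested for 17 listed genes of the unfolded protein response, 16 were above 0 chronically, or 13 without chronic ethanol 6. The medians were −0.02 acutely and 0.20 chronically, and 0.08 chronically without that library. Over all genes tested in both histories the chronic median was −0.004. Among 20 histone acetyltransferase and deacetylase genes, *Hdac9* was the acute call (−0.38) and stayed (−0.22), and *Crebbp*, a coactivator of CREB, was at −0.56 chronically (edgeR FDR 0.443, DESeq2 FDR 0.0421).

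The biotypes of the genes with an unadjusted interaction p under 0.05 were unlike those of all genes tested. Putative transcripts (TEC) made up 10.5% of the 1247 genes with a lower log2FC after 10 injections and 1.29% of the 927 with a higher one, against 4.31% of all genes tested. Processed pseudogenes made up 15.1% of those with a higher and 2.97% of those with a lower log2FC, against 7.97%. Their reads can map more than once, and the part of this was not tested.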
